A study of Mus musculus with 4 samples.

Results

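Axonemal dynein heavy chain RNAs were taken as every RNA whose name is Dnah followed by a number and, where present, the letter a, b or c, on either side of a listed RNA pair. This rule found 11 RNAs of the 13318 in the table, 8 of inner arm and 3 of outer arm heavy chains, in 47 of its 56636 pairs. The counts come from RIC-seq, in which RNA ends held near each other by formaldehyde fixation in the cell are ligated and sequenced as chimeric reads. The series compared 2 differentiation libraries with 2 control libraries of mouse spermatogonial stem cells. The genotype label reads Differentiation for the first group and WT for the second, and the cell type label is the same for both. The inducer, the duration, the strain and the age of the donor animals are not given in the sources used here, nor whether the replicates were separate cultures. P-values therefore rest on the spread among 4 libraries alone, and that spread may be technical.

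Axonemal dyneins are the motors that bend motile cilia and the sperm flagellum. Each motor is built around very large heavy chains, which hydrolyse ATP and walk along the neighbouring microtubule doublet; outer arms mainly set beat frequency and inner arms the waveform. In the testis the genes for the flagellar axoneme are switched on as germ cells enter and pass through meiosis, ahead of the assembly of the flagellum in spermatids. DNAH8 and DNAH17 are the outer arm heavy chains of the sperm flagellum, whereas DNAH5, DNAH9 and DNAH11 are known chiefly from multiciliated cells.

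The table lists a pair only where each of the 4 libraries had at least 1 count, and pairs absent from a library were not analysed here. The listed counts summed to 793129 and 1155923 in the differentiation libraries and to 1209031 and 1400011 in the control libraries. Markers of meiotic spermatocytes were higher in the differentiation libraries, with 5 of 7 tested called higher and 0 lower and a summed contact total of 506 and 613 CPM (edgeR's library-scaled counts), against 138 and 130.0 CPM in the controls. Of the 10 meiotic markers, Spo11 had no listed pair. Markers of undifferentiated spermatogonia included 0 of 6 tested called higher and 2 lower, Gfra1 and Shisa6 (247.9 and 231 CPM summed in the differentiation libraries, against 757 and 892 CPM in the controls). Id4, Lhx1 and Nanos2 had no listed pair. Of 10 spermatid markers only Spaca1 was listed, with 3 and 1 counts in the differentiation libraries and 1 and 1 in the controls, and Tnp1, Tnp2, Prm1, Prm2, Acrv1, Acr, Odf1, Akap4 and Gapdhs had none. Sertoli cell markers were called lower in 4 of 7 and higher in 0, with 571 and 519 CPM summed in the differentiation libraries and 873 and 999.9 CPM in the controls (Amh and Rhox5 not listed). Fibroblast and feeder markers were called lower in 4 of 8 and higher in 1, with 1523 and 1674 CPM summed in the differentiation libraries and 1729 and 1588 CPM in the controls (Dcn and Lum not listed). None of 7 markers of multiciliated epithelium, among them Foxj1 and Deup1, had a listed pair. Over all 10993 tested RNAs, edgeR called 5.44% higher and 6.75% lower. The part of these cell types in the results below was not tested.

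Pairs that held a heavy chain RNA made up 0.268% and 0.267% of all listed counts in the differentiation libraries (2124 and 3082 counts), against 0.0446% and 0.0389% in the control libraries (539 and 545 counts). The 95% Wilson intervals of these shares ran from 0.257% to 0.279% and from 0.257% to 0.276% in the differentiation libraries, and from 0.0410% to 0.0485% and from 0.0358% to 0.0423% in the controls, and cover counting error only. The contact total of an RNA, meaning the sum over every pair it takes part in, was tested for 10 of the 11 RNAs; Dnah12 had too few counts. With edgeR's quasi-likelihood test, 7 of these 10 rose and 0 fell, against 5.44% of all 10993 tested RNAs called higher and 6.75% called lower. The median log2 change was 1.68 over the 10 heavy chain RNAs and −0.00071 over all tested RNAs. In 8 of the 10 both differentiation libraries lay above both controls, which held for 26.1% of all tested RNAs. Dnah1 passed the low-count filter through fewer than 2 control libraries. Contact totals count chimeric reads, so more RNA and more contacts per RNA cannot be told apart, nor can more cells of a type and more RNA per cell.

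Whether these calls held without a control library depended on the low-count filter. With the tested RNAs held as they were, leaving out either control kept most of the 7 calls. Far fewer of all tested RNAs were then called higher than with 4 libraries, so the 5.44% above is not the share to set beside these fits. When the low-count filter was applied again to the 3 remaining libraries, edgeR called 0 of 11408 RNAs without control 1 (1742 at an unadjusted p under 0.05) and 0 of 11434 without control 2 (1358), so that every heavy chain call was lost. In these fits, without control 1 and without control 2, the log2 change was 3.05 and 3.03 for Dnah8, 3.21 and 2.84 for Dnah17, 2.01 and 2.12 for Dnah7c, 1.53 and 1.48 for Dnah7b, 1.93 and 1.73 for Dnah2 and 1.62 and 1.31 for Dnah14. For Dnah7a it was 3.99 without control 1 and 2.80 without control 2, against 3.31 with all 4 libraries.

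**Figure D1:**
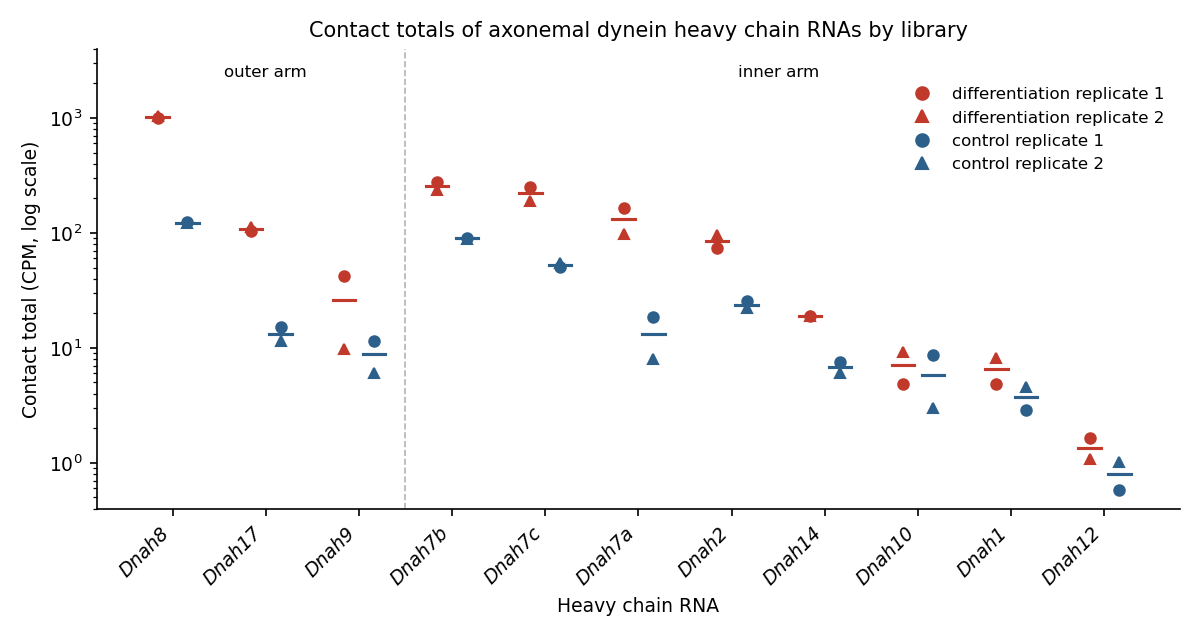
Contact totals of the 11 heavy chain RNAs in each library, in CPM on a log axis, with the outer arm RNAs left of the dashed line; red marks are differentiation and blue marks control libraries, and bars are means of 2. Dnah8, the highest, sits at 994 and 1040.3 CPM in the differentiation libraries and at 124 and 122 CPM in the controls, and the groups overlap for Dnah9 and Dnah10. In 8 of the 10 tested RNAs both differentiation libraries lie above both controls, which held for 26.1% of all tested RNAs. Dnah12, with 2 and 2 counts in the differentiation libraries and 1 and 2 in the controls, was not tested.

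Levels were compared between genes per length, as CPM per 100 kb of gene span, introns included. The order depends on this divisor. In mean CPM of the differentiation libraries, Dnah17 (108) lay below Dnah7b (256) and Dnah7c (221). A read joining different Dnah7 copies counted for both copies. Per 100 kb of span Dnah8 stood first, with a mean contact total of 409 CPM per 100 kb in the differentiation libraries and 49.4 in the controls. In the differentiation libraries Dnah17 (99.5), Dnah7b (83.2), Dnah2 (66.2), Dnah7c (57.8) and Dnah7a (42.3 CPM per 100 kb) came next, and the ranges over libraries of Dnah2 and Dnah7c and of Dnah7c and Dnah7a overlapped. Dnah1 (9.91), Dnah14 (7.90), Dnah9 (7.73) and Dnah10 (6.44) formed a lower set whose neighbours all overlapped, and Dnah12 was lowest at 0.674 CPM per 100 kb. In the controls Dnah7b (29.1), Dnah2 (18.6), Dnah7c (13.7) and Dnah17 (12.2 CPM per 100 kb) followed Dnah8, and only Dnah7c and Dnah17 among these overlapped. Dnah7a had 4.28 CPM per 100 kb in the controls, where it overlapped with Dnah10 and Dnah14. Among tested RNAs whose gene span was within 1.5-fold of a member's, 3.95% to 5.18% were called higher, and their median log2 change lay between −0.37 and −0.12. The reference table held 15 Dnah genes, and Dnah3, Dnah5, Dnah6 and Dnah11 had no listed pair.

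Of the outer arm, Dnah8 (chr17:30626935-30875762, GRCm38.p6) gave the most counts. It had 1219 and 1927 counts in the differentiation libraries, against 214 and 242 in the controls. After scaling this came to 1017 ± 32.8 CPM in the differentiation libraries and 123 ± 1.36 CPM in the controls (SD, n = 2 each), so the groups lay far apart relative to their spread. The contact total rose 8.28-fold (log2 change 3.05, SE 0.16, edgeR adjusted p = 2.82e-06) and ranked 33 of 10993 by log2 change. Its promoter window is printed to show the repeated element around its start. Here and below a window is 250 bases before to 50 after a RefSeq transcription start (GRCm38.p6), printed 5′ to 3′ on the strand of the gene. It lies at chr17:30626686-30626985 on the plus strand, and capitals mark matches of AACGG, the core of the site recognised by MYB proteins.
Dnah8: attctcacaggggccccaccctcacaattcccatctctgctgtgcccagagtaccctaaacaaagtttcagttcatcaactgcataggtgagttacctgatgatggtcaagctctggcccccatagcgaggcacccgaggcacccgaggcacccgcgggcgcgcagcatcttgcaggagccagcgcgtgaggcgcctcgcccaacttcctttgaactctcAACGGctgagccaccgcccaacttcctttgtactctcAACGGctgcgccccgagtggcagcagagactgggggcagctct
The 2 matches lie in near copies of one stretch, the first 30 bases before the start and the other just after it. AACGG on either strand occurred in 5 of 11 heavy chain windows (Dnah1, Dnah7c, Dnah8, Dnah10 and Dnah14) and in 17.4% of 32817 promoter windows. The motif was chosen after the sequences were read, and a match is a description of letters, not a bound site.

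Dnah17 (chr11:118021723-118130719), the other heavy chain of sperm outer arms, had 127 and 210 counts in the differentiation libraries and 26 and 23 in the controls. It rose 8.17-fold, with 108 ± 6.94 CPM in the differentiation libraries and 13.3 ± 2.45 CPM in the controls (SD, n = 2 each; log2 change 3.03, SE 0.25, edgeR adjusted p = 3.52e-05). Both differentiation libraries thus exceeded both controls by several times their spread. Its span overlaps Pgs1, which is also listed, so some reads could belong to either.

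Dnah9 (chr11:65831324-66168581), a heavy chain of outer arms in multiciliated cells, behaved differently between replicates. It had 52 and 18 counts in the differentiation libraries, against 20 and 12 in the controls, all of them within the RNA. In CPM these were 42.4 and 9.72 in the differentiation libraries and 11.6 and 6.04 in the controls, so the groups overlapped through differentiation 2. Its log2 change of 1.51 (SE 0.62) did not pass (edgeR adjusted p = 0.140), and 1 library decided it: the log2 change was 0.19 without differentiation 1 (adjusted p = 0.879) and 2.28 without differentiation 2 (7.8e-05).

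The inner arm RNAs with most counts were the Dnah7 copies, Dnah7a (chr1:53396995-53707301), Dnah7b (chr1:46066071-46373551) and Dnah7c (chr1:46425428-46807477), which encode single-headed inner arm chains. Dnah7b and Dnah7c lie 51.9 kb apart, and Dnah7a several megabases away on the same chromosome. Reads of near-identical copies cannot be assigned with certainty, and how such reads were handled is not given in the sources used here. Their promoter windows are printed because the 3 copies share 1 run of 29 bases with an inverted repeat in it. Capitals mark GTTGCNNNGCAAC, the palindrome of the X-box bound by RFX factors, which reads the same on both strands. The windows lie at chr1:53706735-53707034 on the minus strand for Dnah7a, and on the plus strand at chr1:46066603-46066902 for Dnah7b and chr1:46425268-46425567 for Dnah7c. For all 3 copies the transcription start used lies inside the gene span given above, not at its outer end.
Dnah7a: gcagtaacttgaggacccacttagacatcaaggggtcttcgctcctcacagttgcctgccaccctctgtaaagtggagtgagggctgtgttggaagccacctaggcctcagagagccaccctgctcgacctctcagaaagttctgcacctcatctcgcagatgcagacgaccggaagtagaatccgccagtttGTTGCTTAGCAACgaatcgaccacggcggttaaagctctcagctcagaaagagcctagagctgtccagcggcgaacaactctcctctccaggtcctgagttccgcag
Dnah7b: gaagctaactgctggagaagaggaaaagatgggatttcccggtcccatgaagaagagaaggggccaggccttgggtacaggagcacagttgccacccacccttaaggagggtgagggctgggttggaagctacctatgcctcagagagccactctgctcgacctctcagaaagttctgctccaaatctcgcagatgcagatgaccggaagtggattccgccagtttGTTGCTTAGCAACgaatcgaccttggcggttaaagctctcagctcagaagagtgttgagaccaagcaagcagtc
Dnah7c: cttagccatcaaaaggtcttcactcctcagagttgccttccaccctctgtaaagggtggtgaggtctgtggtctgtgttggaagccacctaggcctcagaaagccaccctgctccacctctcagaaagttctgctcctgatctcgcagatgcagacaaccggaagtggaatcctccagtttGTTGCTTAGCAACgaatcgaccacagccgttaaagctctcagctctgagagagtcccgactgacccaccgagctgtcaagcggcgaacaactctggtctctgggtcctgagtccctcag
The motif begins 57, 24 and 69 bases before the start of Dnah7a, Dnah7b and Dnah7c, in the shared run ccagtttgttgcttagcaacgaatcgacc. It was found in these 3 of the 11 heavy chain windows and in 74 of all 32817 windows (0.225%), and it overlaps no AACGG match there. It too was chosen after the sequences were read. In global alignments the windows of the copies were 57.0% to 79.0% identical, against 39.0% to 50.9% for the other 52 pairs of heavy chain windows.

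Dnah7a had 201 and 183 counts in the differentiation libraries and 32 and 16 in the controls. Its log2 change was 3.31 (SE 0.36, edgeR adjusted p = 1.94e-04, 9.92-fold), with 131 ± 46.0 CPM in the differentiation libraries and 13.3 ± 7.39 CPM in the controls (SD, n = 2 each). The replicates differed more than those of Dnah8, but the groups did not overlap. With 1 library left out its log2 change ran from 2.81 (without control 2) to 4.00 (without control 1), so its order relative to Dnah8 and Dnah17 was not settled.

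Dnah7c had 309 and 352 counts in the differentiation libraries, against 87 and 108 in the controls, and rose 4.20-fold (log2 change 2.07, SE 0.20, adjusted p = 9.29e-05). Dnah7b had 339 and 436 counts in the differentiation libraries, against 157 and 175 in the controls, and rose 2.85-fold (log2 change 1.51, SE 0.17, adjusted p = 2.66e-04). The groups did not overlap for either RNA. Dnah7b was the highest of the copies in both groups, and its change was the smallest.

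With the counts of the copies summed to 1 RNA, and a pair between copies counted once, the differentiation libraries had 598 and 681 counts and the controls 201 and 195. The summed RNA rose 3.98-fold (log2 change 1.99, SE 0.19, edgeR adjusted p = 7.15e-05). Within the listed pairs this value does not depend on which copy a read was given to. Which pairs are listed can depend on it, because each copy is listed separately.

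The 6 pairs within and between the copies carried 544 and 631 counts in the differentiation libraries and 166 and 164 in the controls. All 6 rose, and both differentiation libraries lay above both controls in each, for which no share over all pairs is given. Those of Dnah7c with itself and of Dnah7a with Dnah7b and with Dnah7c passed the low-count filter with fewer than 2 control libraries at its cutoff. The pair of Dnah7a with itself had 125 and 132 counts in the differentiation libraries and 12 and 8 in the controls (log2 change 4.26, SE 0.38, edgeR adjusted p = 6.19e-06), and that of Dnah7c with itself had 84 and 75 against 13 and 3 in the controls (log2 change 3.88, adjusted p = 2.31e-04; 5.38 without control 1 and 3.10 without control 2). The pair of Dnah7b with itself had 84 and 134 counts in the differentiation libraries and 66 and 49 in the controls, and rose least (log2 change 1.46, adjusted p = 0.00812). Its log2 change was 1.81 without control 1 and 1.16 without control 2, where the call was lost. Joined to Dnah7c, Dnah7b had the most counts of the 6 pairs, 187 and 250 in the differentiation libraries against 60 and 98 in the controls (log2 change 2.06, adjusted p = 1.59e-04).

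Dnah7a joined Dnah7b in 32 and 22 counts in the differentiation libraries and in 4 and 3 in the controls (log2 change 3.52, adjusted p = 0.00272; 2.90 without differentiation 1). It joined Dnah7c in 32 and 18 counts in the differentiation libraries and in 11 and 3 in the controls (log2 change 2.44, adjusted p = 0.0339), a call that was lost without differentiation 1 (log2 change 1.62, adjusted p = 0.152) or control 2 (1.71, adjusted p = 0.207), and a change of 3.75 without control 1. Summed to 1, the 6 pairs rose 5.34-fold (log2 change 2.42, SE 0.22, edgeR adjusted p = 7.95e-06).

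As a share of the 6 pairs, the pair of Dnah7a with itself held 23.0% and 20.9% in the differentiation libraries, against 7.23% and 4.88% in the controls. The pair of Dnah7b with itself held 15.4% and 21.2% in the differentiation libraries, against 39.8% and 29.9% in the controls. The pair of Dnah7c with itself held 15.4% and 11.9% in the differentiation libraries and 7.83% and 1.83% in the controls, and the pair of Dnah7a with Dnah7b held 5.88% and 3.49% in the differentiation libraries and 2.41% and 1.83% in the controls. These 4 shares were apart between the groups, that of Dnah7b with itself lower and the others higher in the differentiation libraries, but 2 libraries against 2 cannot reach an exact two-sided permutation p below 0.333, which is what each gave. Pairs joining different copies held 46.1% and 46.0% in the differentiation libraries and 45.2% and 63.4% in the controls, where the groups overlapped (exact permutation p = 1). No listed pair joined different heavy chains other than the Dnah7 copies.

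**Figure D2:**
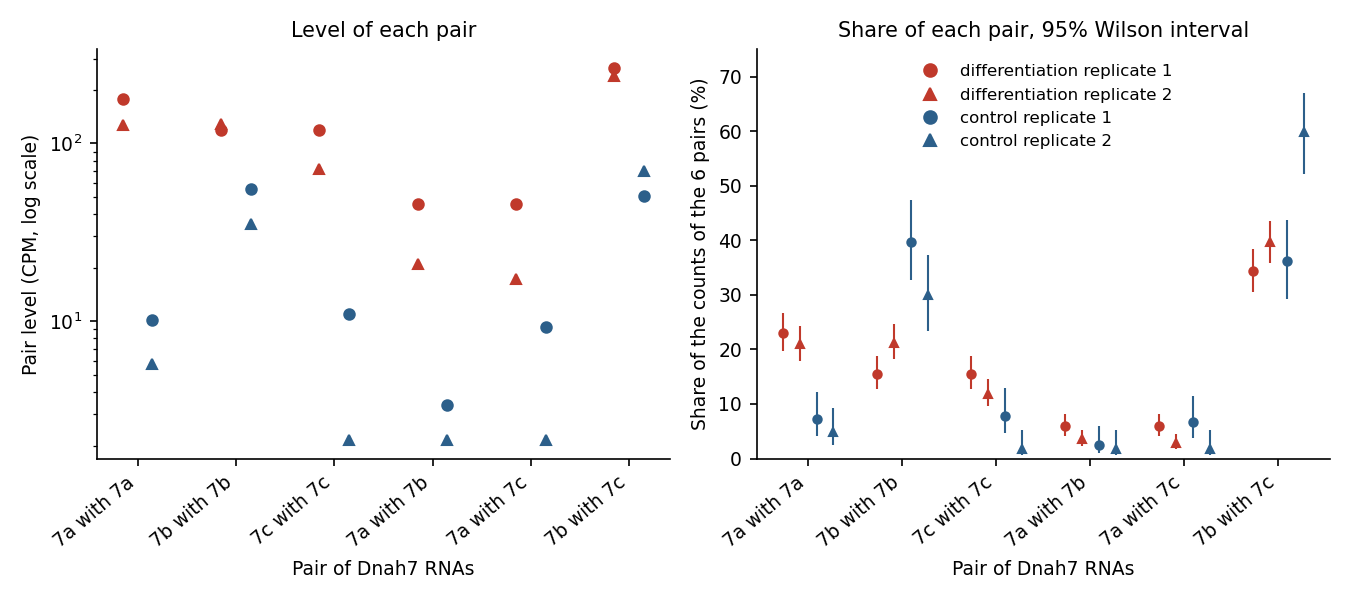
The 6 pairs within and between Dnah7a, Dnah7b and Dnah7c in each library, as CPM on a log axis (left) and as a share of the counts of the 6 pairs with 95% Wilson intervals (right); red marks are differentiation and blue marks control libraries. Every pair is higher in both differentiation libraries, while the share of 7a with 7a is higher (23.0% and 20.9%, against 7.23% and 4.88% in the controls) and that of 7b with 7b lower.

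Dnah2 (chr11:69420807-69549108), which belongs to the double-headed inner arm f dynein, had 91 and 177 counts in the differentiation libraries and 44 and 44 in the controls. It rose 3.59-fold, with 84.9 ± 15.1 CPM in the differentiation libraries and 23.8 ± 2.33 CPM in the controls (SD, n = 2 each; log2 change 1.84, SE 0.24, edgeR adjusted p = 7.09e-04). The groups lay apart, but the call was lost without control 2 (adjusted p = 0.0602) and over between-RNA pairs only (0.135).

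Dnah14 (chr1:181576593-181814932), an inner arm chain, had 23 and 35 counts in the differentiation libraries and 13 and 12 in the controls. It rose 2.77-fold close to the threshold (18.8 ± 0.0995 CPM in the differentiation libraries and 6.78 ± 1.04 CPM in the controls, SD, n = 2 each; log2 change 1.47, SE 0.41, edgeR adjusted p = 0.0398). No DESeq2 value was available for this RNA. The call was lost without control 1 (0.177), control 2 (0.319) or differentiation 2 (0.0813), with no low-count filter (0.0560) and with the pairs of the abundant RNAs Gm42418 and Gm26917 left out (0.462).

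The remaining inner arm RNAs had few counts. Dnah10 (chr5:124725085-124834308), the partner of Dnah2 in the f dynein, had 6 and 17 counts in the differentiation libraries and 15 and 6 in the controls. The groups overlapped and the log2 change was 0.33 (SE 0.63, edgeR adjusted p = 0.796), turning to −0.23 without differentiation 2 and to −0.26 without control 2. Dnah1 (chr14:31260375-31325891) had 6 and 15 counts in the differentiation libraries and 5 and 9 in the controls, a log2 change of 0.82 that did not pass (adjusted p = 0.416). Dnah12 (chr14:26691554-26892719) had 2 and 2 counts in the differentiation libraries and 1 and 2 in the controls, a scaled ratio of 1.61 (counting interval 0.272 to 10.98). Neither of these last RNAs had a pair with itself.

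Pairs show whether the counts lie within an RNA or between it and others. Of the 47 pairs 30 had counts enough for a test, and with edgeR 17 rose and 0 fell, against 2.85% of all tested pairs called higher. Of the 8 pairs of a heavy chain RNA with itself 6 rose, against 12.3% of all tested within-RNA pairs. All 3 pairs between Dnah7 copies rose, and of 36 pairs with another RNA 19 were tested and 8 rose, against 1.30% of all tested between-RNA pairs. Of the 30 tested pairs, 19 reached the filter's count in fewer than 2 control libraries, and 10 of these are among the 17, namely 3 of the Dnah7 pairs, the pairs of Dnah8 with Gm42418, Gm26917, Gm23935, Ano10 and Cdk8, and those of Dnah2 and Dnah14 with Gm42418. Such pairs passed the filter mostly through the differentiation libraries, so these counts are a description. Without control 2 the number that rose was 11, and 0 with the filter redone on the 3 remaining libraries.

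Dnah8 joined to itself held 1051 and 1627 counts in the differentiation libraries, against 170 and 174 in the controls. In CPM over pairs this was 1526 ± 45.5 in the differentiation libraries and 134 ± 13.1 in the controls (SD, n = 2 each), and it rose 11.4-fold (log2 change 3.51, SE 0.20, edgeR adjusted p = 3.44e-08). The part of Dnah8 counts that joined it to other RNAs was 13.8% and 15.6% in the differentiation libraries and 20.6% and 28.1% in the controls. It was lower in both differentiation libraries, with an exact permutation p of 0.333, the smallest this design allows. The share covers listed pairs only. Partners absent from any library are left out of it, and the effect of this on the share was not tested.

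Outside its own RNA, Dnah8 was joined most to Gm42418, with 38 and 86 counts in the differentiation libraries and 5 and 12 in the controls (log2 change 3.38, edgeR adjusted p = 3.05e-04; 3.99 without control 2). With Gm26917 it had 37 and 65 counts in the differentiation libraries and 5 and 17 in the controls (log2 change 2.76, adjusted p = 0.00186), and a log2 change of 2.23 without control 1 and 3.74 without control 2. With Slc9a9, an ion exchanger gene, it had 26 and 53 counts in the differentiation libraries and 9 and 8 in the controls (log2 change 2.72, adjusted p = 0.00219). These 3 RNAs have the most partners in the table, 8422, 7584 and 7833, and their own contact totals had log2 changes of −0.26, −0.50 and −0.29, of which only that of Gm26917 was called lower (adjusted p = 0.0296).

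Of the smaller pairs of Dnah8, those with Gm23935, Ano10 and Cdk8 were called, but all 3 passed the low-count filter with fewer than 2 control libraries at its cutoff, so their values are a description. With Gm23935 it had 12 and 15 counts in the differentiation libraries and 4 and 1 in the controls (log2 change 2.92, adjusted p = 0.0273), and a log2 change of 4.23 without control 1 and 2.17 without control 2 (adjusted p = 0.236). With Ano10, which has only 5 listed pairs, it had 10 and 10 counts in the differentiation libraries and 2 and 2 in the controls (log2 change 2.82, adjusted p = 0.0337), and this call was lost without any 1 of control 1, control 2 and differentiation 1 and with no low-count filter. With Cdk8 it had 4 and 11 counts in the differentiation libraries and 1 and 1 in the controls (adjusted p = 0.0362), a scaled ratio of 11.1 (counting interval 2.58 to 99.8), and the call was lost without either control and without differentiation 2.

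Pairs of Dnah8 with Btbd9 (11 and 19 counts in the differentiation libraries, 4 and 11 in the controls), Shroom3 (12 and 12, against 5 and 1 in the controls), Gm12153 (6 and 13, against 1 and 5) and Malat1 (9 and 5, against 2 and 5) did not pass (adjusted p = 0.141, 0.0615, 0.0991 and 0.244). Btbd9 is the neighbouring gene, 44.3 kb away. The pairs with Sox5 (1 and 4 counts in the differentiation libraries, 5 and 3 in the controls) and Vti1a (2 and 7, against 1 and 2 in the controls) were too small to test, and Sox5 was the 1 partner of Dnah8 that was not higher in both differentiation libraries.

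**Figure D3:**
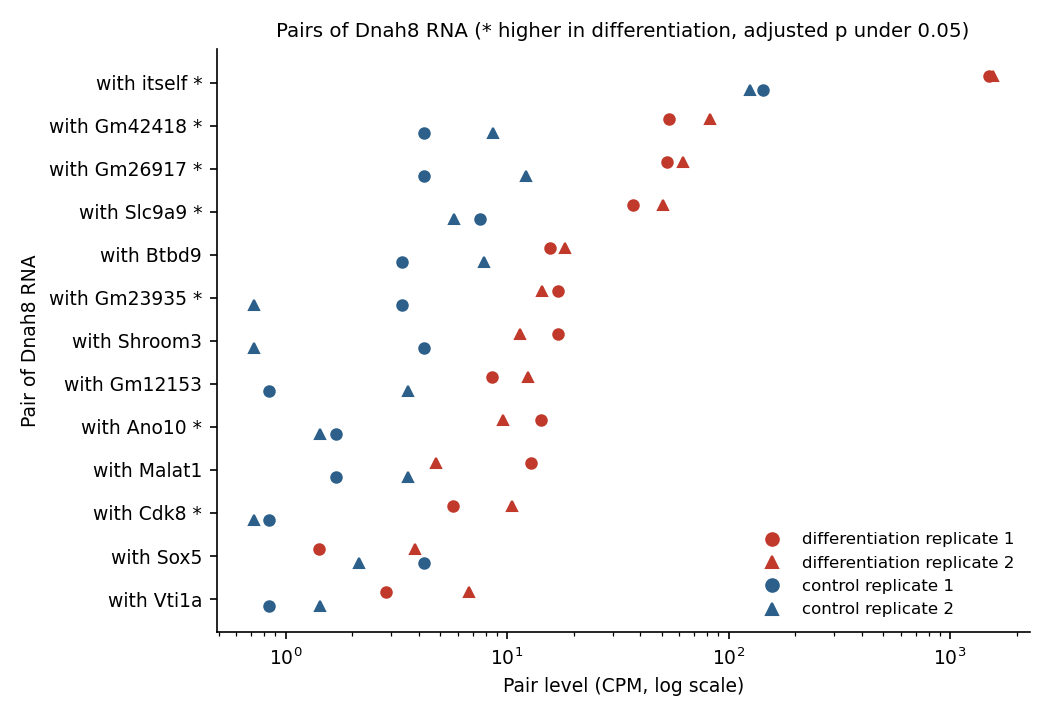
The 13 listed pairs of Dnah8 RNA in each library, as CPM over pairs on a log axis; red marks are differentiation and blue marks control libraries, and asterisks mark pairs called higher in differentiation. The pair with itself stands at 1494 and 1558 CPM in the differentiation libraries and at 143 and 125 CPM in the controls. In all pairs but that with Sox5 both differentiation libraries lie right of both controls, a description with no share over all pairs beside it.

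Dnah17 and Dnah2 also rose within their own RNA. Dnah17 joined to itself had 123 and 188 counts in the differentiation libraries and 24 and 21 in the controls (log2 change 3.33, SE 0.30, edgeR adjusted p = 8.26e-06). Dnah2 joined to itself had 73 and 155 counts in the differentiation libraries and 27 and 39 in the controls (log2 change 2.31, SE 0.32, adjusted p = 3.65e-04). The pairs of Dnah9 and Dnah10 with themselves did not pass (log2 changes 1.80 and 0.62, adjusted p = 0.0792 and 0.650). That of Dnah9 had a log2 change of 0.45 without differentiation 1 (adjusted p = 0.754) and 2.55 without differentiation 2 (9.9e-06), of 2.34 without control 1 (0.0160) and 1.39 without control 2 (0.25), and adjusted p-values of 0.340 with DESeq2 and 0.00871 with no low-count filter.

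With other RNAs, Dnah2 had 10 and 10 counts with Gm42418 in the differentiation libraries and 1 and 1 in the controls (edgeR adjusted p = 0.0128), a scaled ratio of 14.8 (counting interval 3.59 to 130.3), and the call was lost without differentiation 1 (0.0554) or control 2 (0.0900). With Gm26917 it had 3 and 5 counts in the differentiation libraries and 10 and 3 in the controls (log2 change −0.16, adjusted p = 0.941; 1.04 without control 1). Dnah14 with Gm42418 had 12 and 15 counts in the differentiation libraries and 1 and 5 in the controls (log2 change 2.70, adjusted p = 0.0346), a call that was lost without control 1 (log2 change 2.08, adjusted p = 0.194), while the change was 4.02 without control 2. The changes of 1 heavy chain RNA with Gm42418 and with Gm26917 thus differed in size or sign in Dnah2, and this difference was not tested.

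No other pair of Dnah7a, Dnah7b, Dnah7c or Dnah17 with an RNA that is not a Dnah7 copy was called. Dnah7b had 12 and 6 counts with Gm42418 in the differentiation libraries and 8 and 6 in the controls, and 8 and 5 with Gm26917 in the differentiation libraries and 11 and 6 in the controls. The log2 changes were 0.97 and 0.20 (adjusted p = 0.466 and 0.917). The second turned to −0.47 without differentiation 1 and to −0.26 without control 2, and its counts equal those of another pair of Gm26917. Pairs with a neighbouring gene were few: Dnah17 with Cyth1, 33.5 kb away, had 2 and 9 counts in the differentiation libraries and 1 and 1 in the controls, and Dnah7a with Pms1, just under 100 kb away, had 10 and 1 in the differentiation libraries and 2 and 1 in the controls. In all, 14 other RNAs were partners, and 30 of the 36 pairs with another RNA held 1 of the 8 RNAs with most partners.

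Lists of other axonemal dynein genes, their assembly factors and regulators, and of cytoplasmic dynein and dynactin were set beside the heavy chains. Over these 5 lists 8 of 50 tested RNAs were called higher (16.0%) and 2 lower (4.0%), against 5.44% and 6.75% of all tested RNAs. Cytoplasmic dynein and dynactin made up 25 of the 50 and held both RNAs called lower. Of the 8, Dnaic1, Lrrc48 and Mybl1 passed the low-count filter with fewer than 2 control libraries at its cutoff, so the counts of their lists are a description. Of 3 tested RNAs of axonemal intermediate and light chains 1 rose and 0 fell (median log2 change 0.59). Dnaic1, an outer arm intermediate chain, had 4 and 13 counts in the differentiation libraries and 1 and 1 in the controls (edgeR adjusted p = 0.0311), a scaled ratio of 10.3 (counting interval 2.43 to 91.5). Dnal4 (log2 change −0.04) and Wdr63 (0.59) were not called.

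Of 8 tested genes for docking the arms, the molecular ruler and the nexin-dynein regulatory complex, 3 rose and 0 fell (median log2 change 1.16). Ccdc39, which sets the repeat of inner arms along the doublet, had 52 and 104 counts in the differentiation libraries and 9 and 18 in the controls (log2 change 2.77, SE 0.36, edgeR adjusted p = 6.88e-04). Lrrc48, a subunit of the regulatory complex, had 10 and 35 counts in the differentiation libraries and 7 and 3 in the controls (log2 change 2.32, adjusted p = 0.0361). Iqcg, another subunit, had 45 and 63 counts in the differentiation libraries and 20 and 28 in the controls (log2 change 1.45, adjusted p = 0.0133). In all 3 both differentiation libraries lay above both controls in CPM.

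Of 8 tested factors that assemble dynein arms in the cytoplasm 1 rose and 0 fell (median log2 change 0.30). It was Dnaaf5, with 196 and 321 counts in the differentiation libraries and 192 and 216 in the controls (1.52-fold in CPM, log2 change 0.60, edgeR adjusted p = 0.0406). Cytoplasmic dynein, which carries cargo along microtubules, and its activator dynactin gave a median log2 change of 0.03 over 25 tested RNAs, of which 1 rose (4.0%) and 2 fell (8.0%), near the 5.44% and 6.75% of all tested RNAs, so nothing is read from the list as a whole. The one that rose was Dync2h1, the heavy chain of the dynein of intraflagellar transport, with 70 and 113 counts in the differentiation libraries and 55 and 70 in the controls (log2 change 0.82, adjusted p = 0.0416). Dync1i1, an intermediate chain of cytoplasmic dynein, fell by 1.65 on the log2 scale (312 ± 4.99 CPM in the differentiation libraries and 978 ± 95.8 CPM in the controls, SD, n = 2 each; adjusted p = 7.1e-05). Dctn6, a dynactin subunit, fell by 1.49 on the log2 scale (adjusted p = 0.00480). Dync1h1, the heavy chain of cytoplasmic dynein, chosen here after its values were seen, had 429 and 600 counts in the differentiation libraries and 546 and 684 in the controls, a log2 change of 0.03 (adjusted p = 0.941) whose sign turned under other settings.

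Of 6 tested regulators of motile cilium genes 2 rose and 0 fell (median log2 change 0.46). Mybl1, a MYB protein of meiotic male germ cells, had 20 and 61 counts in the differentiation libraries and 5 and 5 in the controls (log2 change 3.19, SE 0.52, edgeR adjusted p = 0.00250). Rfx2, an RFX factor needed for flagellum formation in mouse, had 94 and 134 counts in the differentiation libraries and 27 and 33 in the controls (log2 change 2.20, SE 0.25, adjusted p = 2.53e-04). Foxj1, the regulator of multiciliated cells, had no listed pair. These are contact totals of the RNAs, and binding of the proteins was not measured. Without control 1 or without control 2 the number called higher over the 5 lists was 2 of 50 in place of 8, and 0 with the filter redone. The calls of Dnaic1, Lrrc48, Iqcg, Dnaaf5, Dync2h1 and Mybl1 were lost without either control, and that of Dctn6 without control 1 (adjusted p = 0.118). Those of Dnaic1, Lrrc48, Dnaaf5 and Dync2h1 were also lost without differentiation 2. Ccdc39, Rfx2 and Dync1i1 kept theirs with the tested RNAs held. Without differentiation 2 the log2 change was 1.56 for Lrrc48 and 2.56 for Mybl1, and over between-RNA pairs only it was 1.48 for Rfx2 and 0.17 for Dync2h1.

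**Figure D4:**
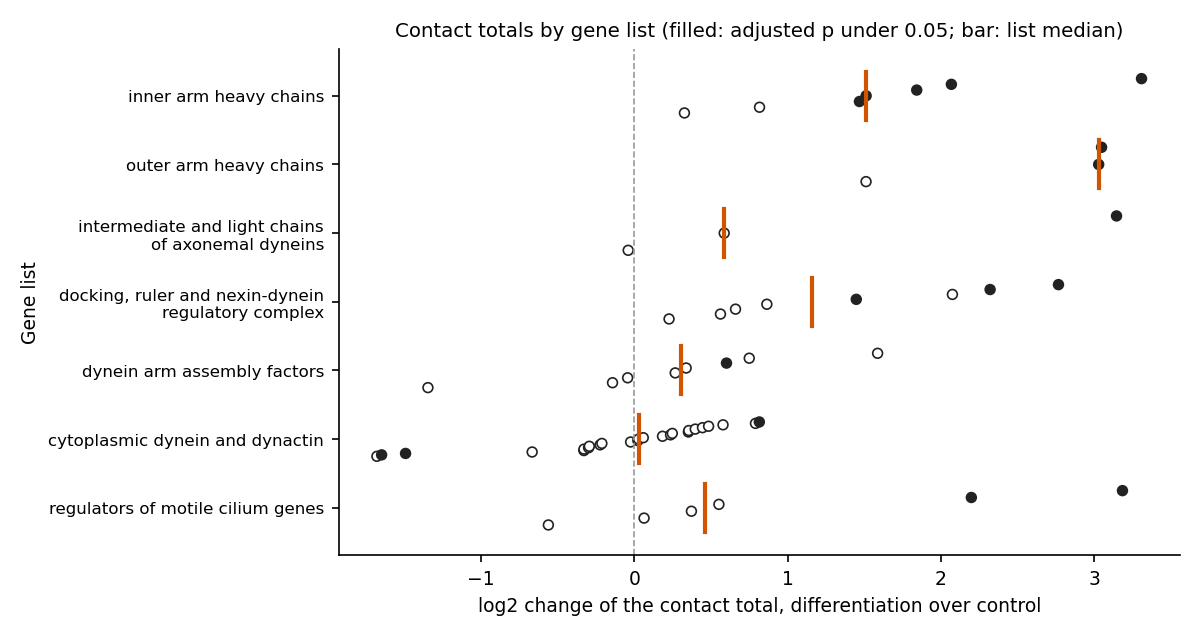
Log2 change of the contact total, differentiation over control, for each tested RNA of the 7 gene lists; filled circles have an adjusted p under 0.05, orange bars are list medians and the dashed line is the median of all tested RNAs. The outer arm heavy chains have the highest median (3.03), the inner arm heavy chains 1.51, and cytoplasmic dynein and dynactin 0.03. The RNAs of this last list run from −1.68 (Dynlt1a, not called) to 0.82 (Dync2h1).

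RNAs with the most similar profile to the heavy chains were named by the smallest root mean square difference of centred log2 CPM over the 4 libraries, among 8286 RNAs. With only 4 points in 2 groups many RNAs are close, so the list is a description. For the summed heavy chains they were Shcbp1l (difference 0.164), 4931428L18Rik (0.169) and Sycp1 (0.178), a protein of the synaptonemal complex of meiotic chromosomes. For Dnah8 alone they were RP23-202K1.1 (0.0773), Cers3 (0.157) and Cfap70 (0.165), and 10 RNAs lay within 0.3. For Dnah17 they were Sycp1 (0.136), 4931428L18Rik (0.157) and RP23-202K1.1 (0.189). Sycp1 had 179 and 364 counts in the differentiation libraries and 48 and 41 in the controls. For Dnah7a they were March10 (0.161), Pebp4 (0.214) and Ybx2 (0.281), the only RNAs within 0.3. Dnah7c was closest to Relt (0.0956), Adam32 (0.118) and Rfx2 (0.123), Dnah7b to Bub1, Hist1h4h and Cinp, and Dnah2 to Nek2, Acot7 and Gm10116. Dnah14 had 408 RNAs within 0.3 and Dnah1 had 1026. Dnah9 and Dnah10, whose replicates differed, were closest to Nrg1 and to Stard7.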

How the data were processed

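The deposited table held raw whole-number counts of chimeric reads per RNA pair, which the authors gave without normalization. STAR and GRCm38 are named, without a role, per the submitters' processing notes. Chimera calling, duplicates and multi-mapping reads are not given in the sources used here. Per the labels, libraries were strand-specific.

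Totals per RNA (a within-RNA pair counted once) and pairs were each fitted over the whole table with edgeR 4.0.16 (R 4.3.3): TMM, filterByExpr with minimum count 5 and minimum total 10, quasi-likelihood F test, two-sided, Benjamini-Hochberg threshold 0.05. The fit was tested on simulated counts. CPM uses the scaled library sizes of its fit. The biological coefficient of variation was 18.7% over totals and 24.9% over pairs.

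Members and lists were chosen with earlier results of these data known. All members and up to 4 called RNAs per list were named. Sequences are from RefSeq (GRCm38.p6); all 11 members matched. Alternatives covered scaling, filter, DESeq2 1.42.0, robust dispersion, replicate block, left-out libraries and pair choice.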

Additional observations from a re-analysis of the deposited data

How the results depend on the processing

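No heavy chain RNA or pair was called lower under any alternative. Of 40 heavy chain results, 22 had a DESeq2 value, and all 22 kept their call or lack of one. Of 11 results of the other lists, 7 did so with DESeq2 and 1 was weaker, and the rest had no value. The lower DESeq2 counts below thus include results with no DESeq2 value. The 7 heavy chain RNAs called higher numbered 5 (Dnah7 copies summed, which merges 3 into 1) to 8 (replicate block) over the alternatives that kept all libraries, and 5 to 7 with 1 library left out. The low-count filter was held at the 4-library set in these; that choice was made after the fits with the filter redone were seen. With it redone the range was 0 to 7, and 0 to 18 for pairs, 0 to 9 for pathway genes higher and 0 to 3 for those lower, and the zeros fell without a control library. In those fits more RNAs were tested and the lone control was taken to vary as the differentiation libraries did; the cause of the loss was not tested. The 17 pairs called higher became 12 with DESeq2 and 11 to 18 with 1 library left out. The 8 pathway genes called higher (5 lists, heavy chains aside) became 4 with DESeq2, 4 over between-RNA pairs only, 4 over within-RNA pairs only, 5 without Gm42418 and Gm26917 pairs, and 2 to 9 with 1 library left out. The 2 called lower became 1 over within-RNA pairs only and 1 to 3 with 1 library left out.

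With the replicate block, 8 heavy chain RNAs and 19 pairs were higher (Dnah9 gained, adjusted p = 0.0139). Calls rose in general with the block. Of all 10993 tested RNAs 942 were called higher in place of 598, and of all 31688 tested pairs 1352 in place of 902. Same-numbered libraries deviated together only weakly (r = 0.139 over 10993 RNAs), and 2 pairs are too few to pair them, so they share only a number. Signs turned for values that were never called. With 1 library left out, Dnah10 ran from −0.26 to 1.24 (below 0 without differentiation 2 and without control 2), Dnah2-Gm26917 from −0.86 to 1.04 (above 0 without control 1) and Dnah7b-Gm26917 from −0.47 to 0.81 (below 0 without differentiation 1 and without control 2). With the filter redone as well, the values that turned were −0.23 and −0.27 for Dnah10, −0.0015 for its pair with itself, 1.01 for Dnah2-Gm26917 and −0.44 and −0.27 for Dnah7b-Gm26917. Dync1h1 was −0.0081 with no filter, −0.0048 without Gm42418 and Gm26917 pairs, −0.0423 without control 1 with the filter redone, and −0.0333 to 0.0918 with 1 library left out. Column totals alone moved the median of all RNA totals to 0.16. Depth limits Dnah1, Dnah10, Dnah12 and pairs with 1 to 5 counts per control library.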
